A study of Mus musculus with 4 samples.

Results

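Cadherins are calcium-dependent adhesion receptors with tandem extracellular cadherin repeats, and 32 of their genes outside the clustered protocadherins were examined for altered 5-hydroxymethylcytosine (5hmC) after loss of LSH. LSH, the product of Hells, is an ATP-dependent chromatin remodeler of the SNF2 family, and 5hmC arises when TET enzymes oxidise 5-methylcytosine. The 32 genes were taken by name, all 32 were found among 22208 protein-coding genes, and a 5 kb bin counted for a gene if it met the gene body or the 5 kb upstream. Mouse embryonic stem (ES) cells and mouse embryonic fibroblasts (MEFs), each wild type or knocked out for LSH, gave 4 libraries, 1 per group and without replicates, so no spread between cultures can be given. The labels give neither the knockout allele nor the number of clones or embryos behind a culture. Fragments carrying 5hmC were captured through a biotin-tagged glucose and sequenced, and the deposited data are 2 lists of 5 kb bins of mm9, one per cell type. Each lists the bins called differential between knockout and wild type. The lists hold no direction, level, fold change or p-value, so a listed bin is one called altered, with 5hmC higher or lower unknown. No expression was measured, so the cell type labels could not be checked against marker genes.

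Classical cadherins bind the same or related cadherins on a neighbouring cell and link through catenins to actin; type I members such as E-cadherin and N-cadherin form strong junctions, and type II members are prominent in nervous tissue. Atypical members include the lipid-anchored T-cadherin and the very long proteins of the inner ear tip link, the filament that pulls open the mechanotransduction channels of hair cells. Fat, Dachsous and Celsr proteins are giant cadherins known for planar cell polarity, the alignment of cells within a sheet. ES cells hold together mainly through E-cadherin, whereas fibroblasts are known for N-cadherin and cadherin 11.

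The 32 windows took in 1652 bins, of which 40 were listed, out of 17111 distinct listed bins on chromosomes 1 to 19 and X. Of these, 28 were on the ES list, 14 on the MEF list and 2 on both. They fell in 16 of the 32 genes, and no listed bin lay in the windows of more than 1 member. An ES bin was present at 12 genes (37.5%) and a MEF bin at 10 (31.2%). Over all protein-coding genes these shares were 20.8% and 14.4%, but cadherin genes are long, with a median window of 129 kb against 20.5 kb. Shares in genes of like length would give 11.9 members with an ES bin and 10.7 with a MEF bin. The number of cadherin genes reached was therefore near the background for their length in both cell types. Per bin, 1.69% of the windows was on the ES list and 0.847% on the MEF list. The exact 95% binomial intervals were 1.13% to 2.44% and 0.464% to 1.42%; they describe the number of bins counted and not a spread between cultures. In windows of all protein-coding genes the shares were 2.60% and 2.37%. These shares also varied with length, from 3.39% (ES) and 1.99% (MEF) in windows under 50 kb to 0.853% and 1.46% at 500 kb or more. Cadherin genes thus held 28 ES bins for 14 MEF bins, although the lists as a whole were of like size, 8545 and 8972 bins on chromosomes 1 to 19 and X.

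**Figure D1:**
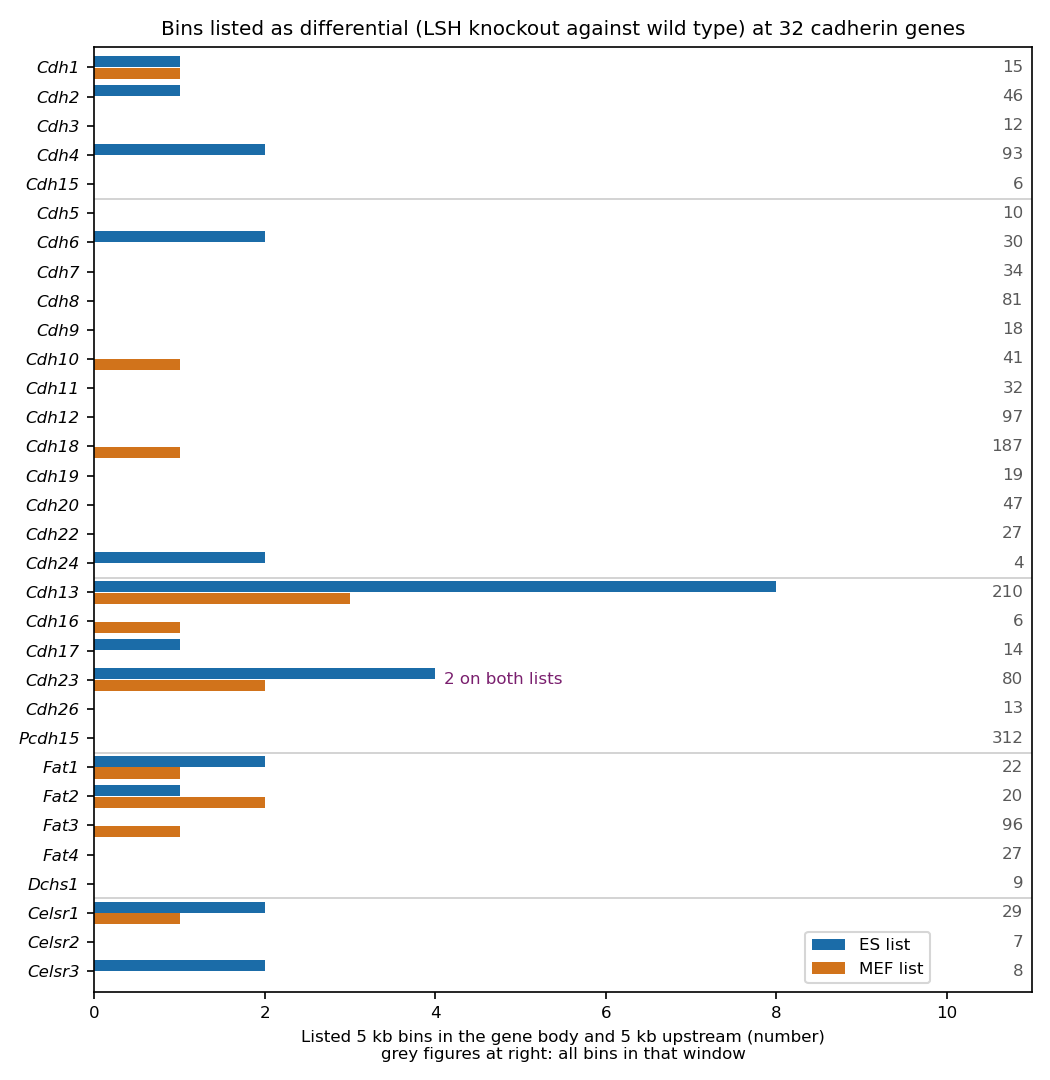
Number of bins on the ES list (blue) and the MEF list (orange) in the body and 5 kb upstream of each of the 32 genes, with all bins of the window in grey at the right. Cdh13 carried 8 ES and 3 MEF bins, Cdh23 held the 2 bins on both lists, and Pcdh15, with 312 bins, had none.

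Among the 32 genes, bins on both lists were found at Cdh23 alone, which encodes cadherin 23, the upper part of the tip link. Cdh23 lies on the minus strand of chromosome 10 (59765496 to 60159238) and its window held 80 bins. The bins chr10:59855001-59860000 and chr10:59840001-59845000 were altered in ES cells and in MEFs. The first covered exon 30 of 71 and the second exons 35 to 38, in the part of the gene that is dense in exons, 302 kb and 317 kb from the 5′ end. They had 87 and 67 CpG dinucleotides, the sites where most mammalian cytosine methylation lies. Below is the stretch of 200 bases with the most CpG in each shared bin, shown because these are the bins of the 32 genes altered in both cell types. The plus strand of mm9 is given with every CpG in capitals:
Cdh23, chr10:59855626-59855825: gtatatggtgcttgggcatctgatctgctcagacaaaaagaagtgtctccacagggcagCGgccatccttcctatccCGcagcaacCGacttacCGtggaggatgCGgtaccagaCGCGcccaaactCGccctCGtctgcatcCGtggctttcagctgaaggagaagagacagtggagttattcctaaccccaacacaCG
Cdh23, chr10:59843272-59843471: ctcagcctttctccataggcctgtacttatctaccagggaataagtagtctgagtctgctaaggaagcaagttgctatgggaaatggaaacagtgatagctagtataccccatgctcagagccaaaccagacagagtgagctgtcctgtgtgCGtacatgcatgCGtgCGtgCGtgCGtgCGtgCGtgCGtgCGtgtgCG

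The first stretch held 11 CpG and took in 61 bases of exon 30. The second held 10 CpG and lay in an intron, and 8 of its CpG belong to copies of the letters CGTG on this strand, all 8 side by side as a simple repeat. A pair of adjacent bins of Cdh23 was on the ES list alone, chr10:60025001-60030000 and chr10:60030001-60035000, both inside intron 7. They are 132 kb and 127 kb from the 5′ end, with 18 and 10.6 CpG per kb respectively. So 4 of 80 bins were listed in ES cells and 2 of 80 in MEFs, and each MEF bin of the gene was also an ES bin. Over the whole genome 406 bins were shared, or 4.75% of ES bins and 4.53% of MEF bins. Shared bins were 0.121% of the bins in cadherin windows and 0.119% in windows of all protein-coding genes. In the cadherin windows the 2 shared bins were 7.14% of the ES bins and 14.3% of the MEF bins. Genes with a shared bin made up 1.19% of protein-coding genes and 5.32% of those with windows of 150 to 500 kb, the length group of Cdh23; among the 32 members there was 1.

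Cdh13 had the most listed bins of the family. It encodes T-cadherin, which lacks a transmembrane and cytoplasmic part, is held by a lipid anchor and binds adiponectin. The gene spans 1041 kb on chromosome 8 (120807633 to 121848821), and 8 of its 210 bins were on the ES list and 3 on the MEF list, with none in common. The ES bins were spread through the gene at 34.9, 105, 205, 465, 550, 585, 665 and 945 kb from the 5′ end. MEF bins lay at 59.9, 835 and 975 kb. An ES bin and a MEF bin came no closer than 25 kb, between the starts of chr8:120840001-120845000 (ES) and chr8:120865001-120870000 (MEF). Of these 11 bins, 10 were intronic in all transcripts, and the ES bin at 34.9 kb touched an exon of a transcript other than the longest coding one. Of the ES bins, 5 exceeded the gene's median of 10.8 CpG per kb, among them 3 with 15.4 to 16.4 CpG per kb in introns 3, 4 and 5. The bin over the 5′ end, the most CpG-rich of the window in the plot of bins along the gene, was on neither list.

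**Figure D2:**
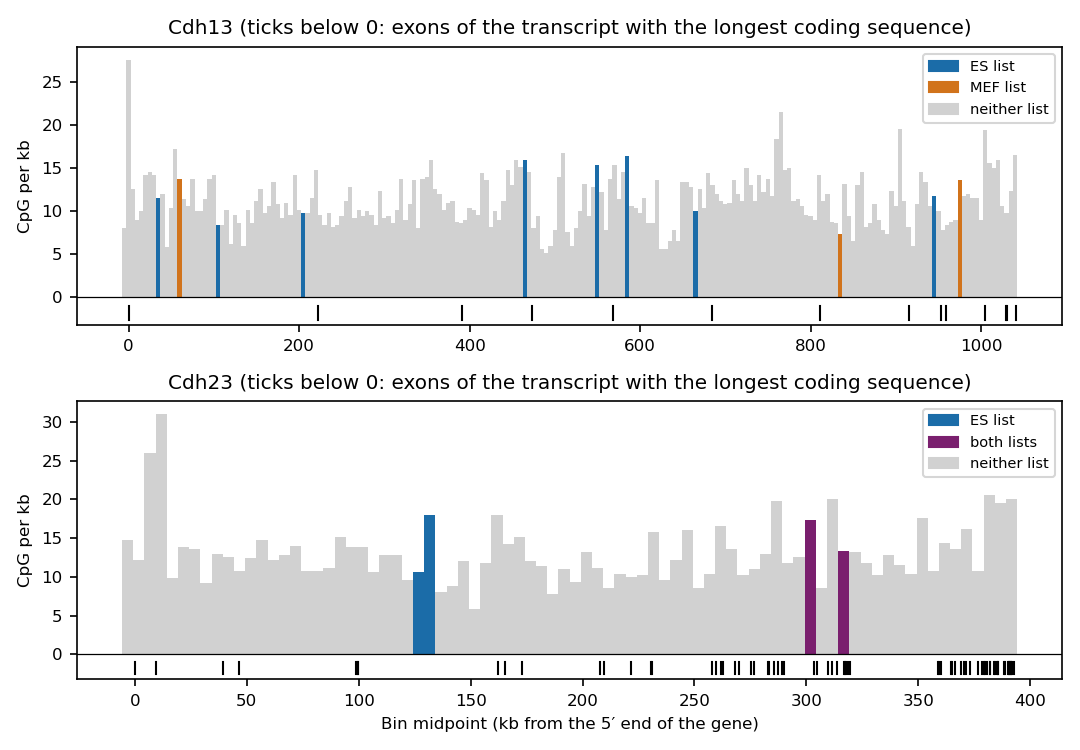
CpG density of each 5 kb bin along Cdh13 (top) and Cdh23 (bottom) against distance from the 5′ end in kb, coloured by list, with exons as ticks. Listed bins of Cdh13 are single and spread over introns. The 2 bins of Cdh23 on both lists stand 302 kb and 317 kb from the start, the second of them among closely spaced exons.

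Pcdh15, the partner that forms the lower part of the tip link, gave a different count. Its window was the longest of the family, 1555 kb and 312 bins on chromosome 10, and held 0 ES and 0 MEF bins. Its bins were poor in CpG, with a median of 5.2 per kb against 12.3 for Cdh23. At the genome-wide listed share of bins of the same CpG density, 1.82 ES bins and 2.68 MEF bins would lie in it. The same reckoning gave 3.24 and 2.89 for Cdh23 and 6.79 and 6.63 for Cdh13. The observed 4 and 2 at Cdh23 and 8 ES bins at Cdh13 were near these numbers, and the 3 MEF bins at Cdh13 were below. Other atypical members had few bins. Cdh17, the intestinal LI-cadherin, had 1 ES bin over exon 3 (chr4:11695001-11700000), the most CpG-rich of its 14 bins. Cdh16, the kidney-specific cadherin, had 1 MEF bin upstream (chr8:107150001-107155000), which also meets the neighbouring gene Rrad and cannot be assigned to Cdh16 alone. Cdh26, an epithelial cadherin, had none.

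Type I classical cadherins held 4 ES bins and 1 MEF bin among 172. Cdh1, the E-cadherin gene, had 1 bin on each list. Its ES bin, chr8:109180001-109185000, covered exons 6 to 10 of 16. The MEF bin, chr8:109160001-109165000, lay 20 kb nearer the start, inside the 44.6 kb intron 2. Cdh2, the N-cadherin gene on chromosome 18, had 1 ES bin in its 124 kb intron 2, 90.3 kb from the start. That bin held 6.4 CpG per kb, the lowest of the 28 ES bins. Cdh4, which encodes R-cadherin, had 2 ES bins in its 335 kb intron 2, chr2:179385001-179390000 and chr2:179470001-179475000. Of the 5 listed bins of this group, 4 lay in intron 2 of their gene, an intron that takes up most of each gene body. It spans 44.6 of 66.9 kb at Cdh1, 124 of 220 kb at Cdh2 and 335 of 457 kb at Cdh4. Cdh3 (P-cadherin), whose body ends 46.4 kb before that of Cdh1 begins, and Cdh15 (M-cadherin of muscle) had no bin on either list.

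Type II classical cadherins had the sparsest listing, with 4 ES bins and 2 MEF bins among 627. At the genome-wide share for their CpG density, 5.83 ES bins and 6.68 MEF bins would lie in these windows. No bin was listed at 9 of the 13 genes: Cdh5 (VE-cadherin of endothelium), Cdh7, Cdh8, Cdh9, Cdh11, Cdh12, Cdh19, Cdh20 and Cdh22. For these 9 the same reckoning gave few bins each, from 0.038 ES and 0.0957 MEF bins at Cdh9 to 1.44 and 1.02 at Cdh22. Cdh11, known for its expression in mesenchyme, thus had no bin on the MEF list, where its CpG density would give 0.426. The nearest MEF bin outside its 32-bin window was 51.9 kb away. Cdh10 and Cdh18, neural members on chromosome 15, each had 1 MEF bin late in the gene body. They lay at 89.0% (174 of 195 kb) and 93.9% (869 of 925 kb) from the 5′ end. The Cdh10 bin (chr15:18920001-18925000) covered exon 8 of 12 and the Cdh18 bin (chr15:23345001-23350000) was intronic. Several of these genes lie in regions with few listed bins of any kind. Cdh9 was 3598 kb from the nearest ES bin and 2133 kb from the nearest MEF bin, and Cdh8 2468 kb and 2573 kb.

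Both type II genes with ES bins, Cdh6 and Cdh24, had one over the start site. Cdh6, first described as K-cadherin of kidney, had chr15:13100001-13105000 over its first exon, with 25.8 CpG per kb the richest of its 30 bins. A second Cdh6 bin, chr15:13065001-13070000, lay in the 81.5 kb intron 1. Cdh24 is short, 9.37 kb, so its window had 4 bins, of which 2 were on the ES list. The first, chr14:55260001-55265000, covered the start site, had 34.4 CpG per kb and also meets Acin1 and Gm17606. The other, chr14:55250001-55255000, covered exons 9 to 12 of 12 and also meets CT009512.1, so neither belongs to Cdh24 alone. The remaining cadherin bin over an annotated coding start was chr11:55120001-55125000 of Fat2, on the ES list. That start belongs to a short transcript that begins inside the gene, and the bin lies 27.6 kb from the 5′ end of the full-length model. The most CpG-dense 200 bases of these 3 bins outside annotated untranslated exons are shown, since they are the cadherin start site bins called altered. CpG is again in capitals on the plus strand of mm9:
Cdh6, chr15:13102935-13103134: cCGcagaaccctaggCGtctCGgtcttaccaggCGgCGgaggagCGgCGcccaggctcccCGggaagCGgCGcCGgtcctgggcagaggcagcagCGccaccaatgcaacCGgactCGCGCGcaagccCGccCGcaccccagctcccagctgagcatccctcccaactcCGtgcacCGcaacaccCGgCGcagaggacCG
Cdh24, chr14:55260202-55260401: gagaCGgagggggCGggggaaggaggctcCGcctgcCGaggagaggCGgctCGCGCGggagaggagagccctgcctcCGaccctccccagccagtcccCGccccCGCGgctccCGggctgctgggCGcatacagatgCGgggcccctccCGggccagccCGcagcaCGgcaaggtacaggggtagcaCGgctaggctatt
Fat2, chr11:55123984-55124183: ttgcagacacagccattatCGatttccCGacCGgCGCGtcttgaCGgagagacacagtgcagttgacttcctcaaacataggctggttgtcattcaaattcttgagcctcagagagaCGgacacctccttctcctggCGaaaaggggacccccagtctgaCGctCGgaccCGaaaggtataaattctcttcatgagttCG

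The Cdh6 stretch held 23 CpG and a GC content of 73.0% and lies in intron 1, 0.359 kb from the 5′ end. The Cdh24 stretch held 19 CpG at 75% GC, centred 0.101 kb before the gene. The Fat2 stretch, with 12 CpG at 52.0% GC, lay wholly in exon 2. Of the 32 bins over the 5′ end of a member, 2 were on the ES list, those of Cdh6 and Cdh24, and 0 on the MEF list. For all protein-coding genes the shares were 2.94% and 2.13%.

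Fat and Dachsous genes were the only subfamily with more MEF bins than ES bins, 4 against 3 among 174. Without Fat2 the ES and MEF rates were equal, at 2.67 bins per Mb. Fat1, a broadly expressed giant cadherin that acts on actin and growth, had 2 ES bins, one in intron 1 (chr8:46065001-46070000) and one over exons 7 and 8 (chr8:46100001-46105000). A MEF bin lay between them in intron 2 (chr8:46080001-46085000). Fat2, known from cerebellar granule cells and skin epithelium, had 2 MEF bins. One of them, chr11:55115001-55120000 over exon 3, directly adjoined the ES bin named above, and the other, chr11:55140001-55145000, was in intron 1. Fat3 had 1 MEF bin in its 128 kb intron 1, chr9:16145001-16150000. Fat4 and Dchs1, which encode a receptor and ligand pair of planar polarity, had none on either list.

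Celsr genes encode the mammalian forms of the fly polarity cadherin Flamingo. Celsr1 had 2 ES bins, in intron 1 (chr15:85845001-85850000) and over exons 20 to 22 (chr15:85750001-85755000), and 1 MEF bin in intron 2 (chr15:85800001-85805000). Celsr3 had 2 ES bins of 8, one over exons 33 to 35 (chr9:108750001-108755000) and one upstream that also meets Nckipsd (chr9:108720001-108725000). The midpoint of the upstream bin lies outside the window. Celsr2, with 25.2 CpG per kb the most CpG-rich window of the family by median, had none.

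Scaled by window length, ES bins were densest in the Celsr genes, at 19.9 per Mb. Type I members had 4.79, atypical members 4.12, Fat and Dachsous members 3.57 and type II members 1.3 ES bins per Mb. MEF bins ran at 4.97 per Mb in Celsr, 4.76 in Fat and Dachsous, 1.90 in atypical, 1.20 in type I and 0.651 in type II genes. All protein-coding genes together had 5.91 ES bins and 5.17 MEF bins per Mb, but these rates varied with window length. The ES rate was 8.998 per Mb in windows under 50 kb and 1.715 in those of 500 kb or more. The MEF rate was 5.078 under 50 kb and 2.933 at 500 kb or more. The pooled rates are therefore not a like comparison for subfamilies whose genes differ in length. The Celsr rates rest on 4 ES bins and 1 MEF bin in 44, and their intervals overlapped those of type I, atypical and Fat genes in both lists. The ES share of Celsr bins was 9.09% (2.53% to 21.7%) and that of type II bins 0.638% (0.174% to 1.63%). Single genes and shared bins moved these rates. Without Celsr1 the Celsr rates were 32.6 (ES) and 0 (MEF) per Mb, and without bins that also meet another gene the Celsr ES rate was 11.1. With only bins whose midpoint lay inside the window, the Celsr ES rate was 14.9. The type II ES rate was 0.683 without Cdh6 and 0.657 without bins that meet another gene. Without Cdh13 the atypical ES rate was 2.37, and without Cdh4 the type I MEF rate was 2.68. Without Fat2 the Fat and Dachsous rate was 2.67 in both lists. With the longest protein-coding transcript as gene model the type II MEF rate was 0.333. The median CpG per kb was 5.0 in type II, 7.2 in Fat and Dachsous, 8.2 in atypical, 11.1 in type I and 15.2 in Celsr windows. The ES rates rise in this order. The MEF rates do not, with Fat and Dachsous above atypical and type I. Relative to the number given by the genome-wide share at the same CpG density, ES bins were 1.79 times in Celsr, 1.04 in atypical, 0.948 in Fat and Dachsous, 0.735 in type I and 0.686 in type II genes. For MEF bins the ratios were 0.601, 0.464, 1.27, 0.199 and 0.299 in the same order. No test of differences between subfamilies or cell types was made, since 1 library stands behind each genotype, and a difference between cell types and one in how each list was called cannot be told apart.

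**Figure D3:**
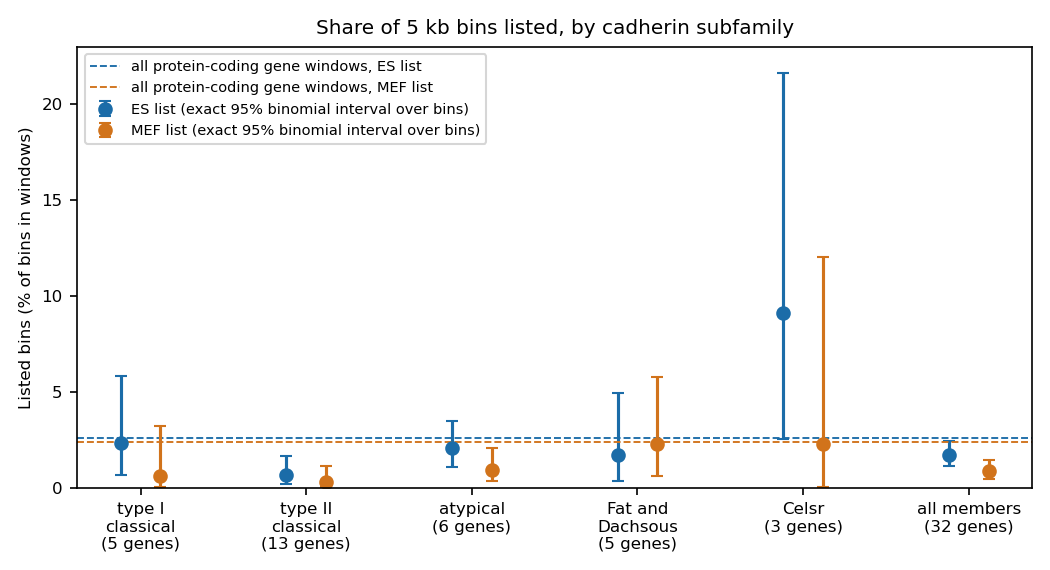
Percent of 5 kb bins listed in each subfamily, ES (blue) and MEF (orange), with exact 95% binomial intervals over bins and dashed lines for all protein-coding gene windows (2.60% and 2.37%). Type II classical genes had the lowest shares in both lists, 0.638% and 0.319%, and the Celsr points have wide intervals because they rest on 44 bins.

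Over all 32 genes the ES bins matched in total the number given by CpG density (28 against 29.2, a ratio of 0.959), whereas the MEF bins were fewer (14 against 29.5, a ratio of 0.475). For the windows of all protein-coding genes these ratios were 1.16 and 1.08. The ES ratio of members was 1.76 in windows under 50 kb and 1.14 at 50 to 150 kb. It was 0.733 at 150 to 500 kb and 0.841 at 500 kb or more. For all genes of these lengths the ES ratios were 1.16, 1.32, 1.07 and 0.735. The MEF ratios of members were 0.568, 0.745, 0.387 and 0.375, against 0.771, 1.14, 1.41 and 1.07. Among the 10 genes of 150 to 500 kb, 3 had a MEF bin, where 50.4% of all such genes did, and the ratio of bins was 0.387 against 1.41 for all genes of that length. In the same group 3 of 10 had an ES bin, where 50.9% did, and the ES ratio of bins was 0.733 against 1.07. Among the 12 genes of 50 to 150 kb, 6 had an ES bin and 4 a MEF bin, where 38.3% and 29.0% of all genes did. The 7 genes under 50 kb included 2 with ES bins and 1 with a MEF bin, against 14.3% and 7.95%. Of their 50 bins, 4 were on the ES list (8% against 3.39%) and 1 on the MEF list (2.00% against 1.99%). The median window of all genes in this group was 14.4 kb. All these members but Cdh24 had longer windows, so lengths within the group were not alike. Of the 3 genes of 500 kb or more, Cdh13 had ES bins and Cdh13 and Cdh18 had MEF bins, against 40.3% and 52.7%.

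By any overlap, 15 of the 28 ES bins were intronic, 9 met an exon, 3 came within 1 kb of a coding start and 1 was upstream. The MEF bins were 9 intronic, 4 exonic and 1 upstream. Of all bins in the windows, 74.2% were intronic and 4.60% near a coding start. The listed share in ES cells was 3.95% of the 76 start bins, 2.75% of 327 exon bins and 1.22% of 1226 intron bins. In MEFs it was 0 of 76, 1.22% and 0.734%. The classes also differed in CpG, with medians of 14.3 per kb in start bins, 8.8 in exon bins and 6 in intron bins. By bin midpoint the exon counts were 1 of 41 in ES cells (2.44%, against 1.5% of 1536 intron bins) and 0 of 41 in MEFs (against 0.846%). With 41 exon bins, a count of 0 cannot set an order of exon and intron bins in MEFs. Start bins by midpoint were listed at 2 of 17 in ES cells and 0 of 17 in MEFs. Of the 15 intronic ES bins 13 lay in introns over 50 kb, as did 3 of the 9 MEF ones and 705 of all 1226 intron bins (57.5%). These ES bins came from Cdh2, Cdh4, Cdh6, Cdh13, Cdh23 and Celsr1, with more from Cdh13 than from any other gene. The MEF ones came from Cdh13 and Fat3, so the shares rest on a few long introns. Along the gene body, split into 4 equal parts from 5′ to 3′, the ES bins numbered 6, 8, 5 and 7 and the MEF bins 3, 3, 1 and 6.

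**Figure D4:**
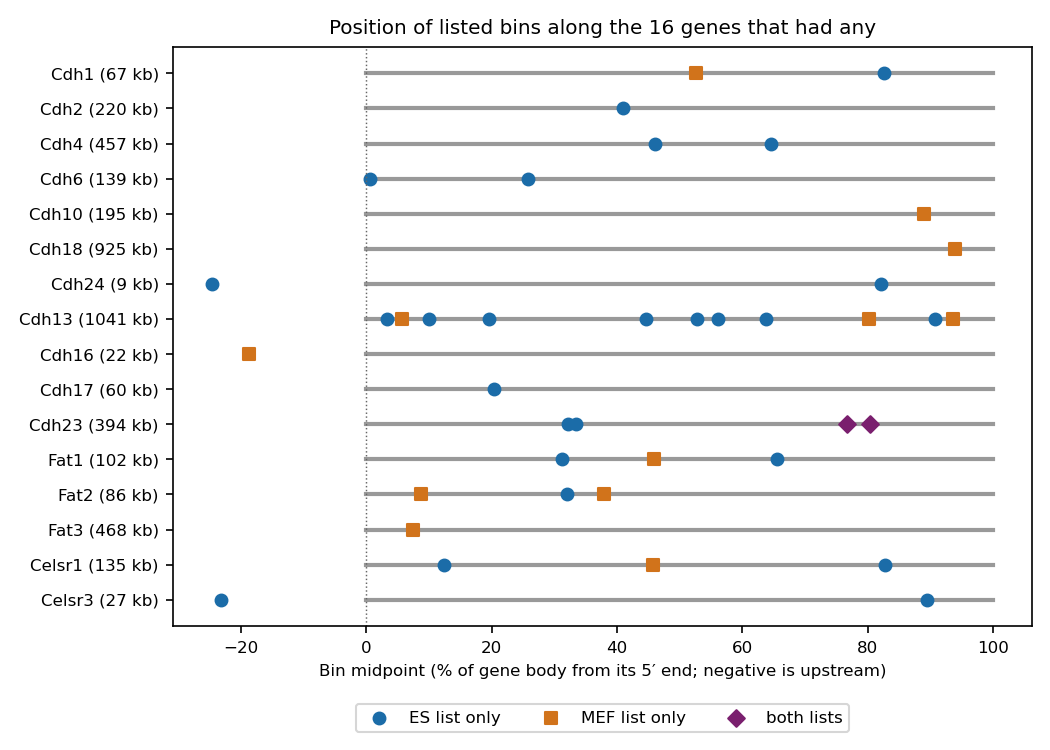
Midpoints of the 40 listed bins as percent of gene body from the 5′ end in the 16 genes that had any, with circles for ES only, squares for MEF only and diamonds for both lists. Only 3 midpoints lie before the start, at Cdh24, Cdh16 and Celsr3, and no gene other than Cdh23 has a diamond.

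Listed bins were rich in CpG, as they were on the lists as a whole. Genome-wide the median was 12.6 CpG per kb in all ES bins and 11 in all MEF bins, against 7 in all bins with sequence. In the cadherin windows the median was 14.2 CpG per kb in the 28 ES bins, 12.6 in the 14 MEF bins and 6.6 in the 1612 unlisted bins. The GC contents were 47.8%, 47.4% and 40.1%. In the highest of 10 equal groups of genome bins by CpG density, 14 of 201 cadherin bins were on the ES list (6.97%, against 5.60% genome-wide) and 3 on the MEF list (1.49%, against 3.69%). In the lower 5 CpG groups, 1 of 857 was listed in each cell type (0.117%). Genome-wide the shares there were 0.180% on the ES list and 0.478% on the MEF list. The 3 ES bins at Cdh6, Cdh17 and Cdh24 (the start site bin) and the MEF bin at Cdh16 were the most CpG-rich of their windows. None of the 40 listed bins had 20% or more of 32-base words that recur in the genome, as 197 of the unlisted bins did. Short reads from recurring words map to several places, so an unlisted bin of this kind may not have been measurable.

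**Figure D5:**
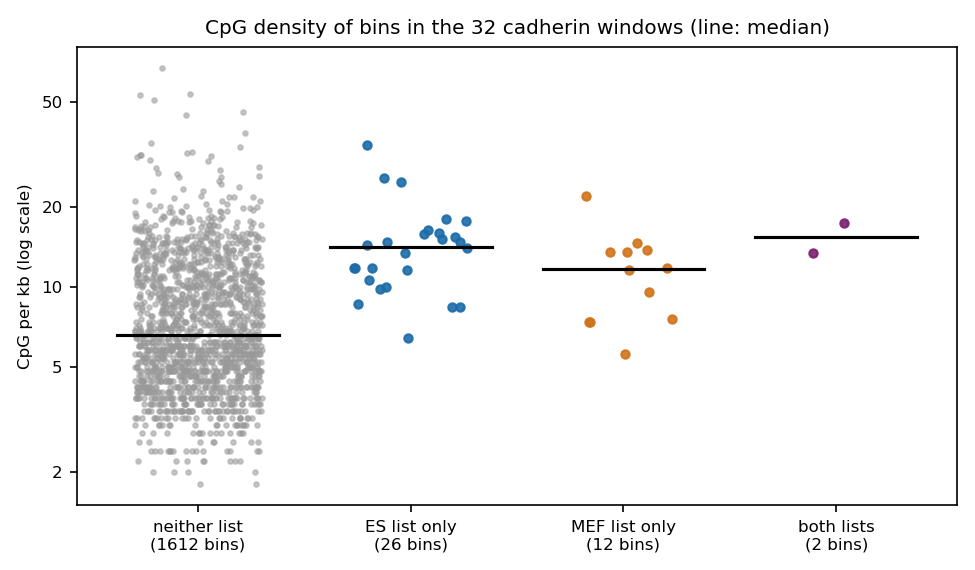
CpG per kb (log scale) of every bin in the 32 windows, by list, with the median as a line. The 26 ES-only and 12 MEF-only bins have medians of 14.2 and 11.7 CpG per kb, above the 6.6 of the 1612 unlisted bins, whose highest values also exceed those of any listed bin.

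Genes that work with cadherins were read in the same way, but their counts were not set against genes of like length. Of 19 catenins and junction partners, 8 had an ES bin and 8 a MEF bin, 4 of them both. Pkp4, a plakophilin of the p120 catenin family, had 5 ES and 3 MEF bins, the 3 MEF bins being adjacent (chr2:59035001-59040000 to chr2:59045001-59050000). Lima1, an actin-binding protein that links the cadherin complex to actin, had 3 ES bins and 2 MEF bins, with chr15:99665001-99670000 on both lists. The alpha-catenin genes Ctnna1 and Ctnna3 had 2 and 1 ES bins and 0 and 2 MEF bins, and the desmosomal plakophilin gene Pkp2 had 2 MEF bins. Of 14 planar polarity partners, 7 had an ES bin and 5 a MEF bin. Ptk7, a receptor-like polarity protein, and Ankrd6, a Dishevelled-binding protein, had 3 ES bins and 1 MEF bin each, and Prickle2 had 1 ES and 3 MEF bins.

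Among 14 partners of the hair cell tip link, 3 had an ES bin and 1 a MEF bin, each gene with 1 bin. The ES bins were at Myo7a, an unconventional myosin of stereocilia, at Cib2, a calcium-binding subunit of the transduction complex, and at the scaffold gene Pdzd7. The MEF bin was at Ush1g, a scaffold that holds the tip link. Of 25 other genes with cadherin repeats that were matched, 4 had an ES bin and 6 a MEF bin, and Dsg2, a desmosomal cadherin gene, had 2 ES bins, one of them shared with MEFs. Among 11 transcription factors known from the switch between cadherins, 1 had an ES bin and 3 a MEF bin. Tcf4 had 5 ES and 3 MEF bins and Zeb2, a repressor of Cdh1, 2 MEF bins. For all protein-coding genes the shares with a bin were 20.8% and 14.4%, without regard to length. With windows under 50 kb they were 14.3% and 7.95%, and with 50 to 150 kb 38.3% and 29.0%. With 150 to 500 kb they were 50.9% and 50.4%, and with 500 kb or more 40.3% and 52.7%.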

How the data were processed

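Libraries of 5hmC-captured DNA came from 4 groups, ES cells and MEFs with or without LSH, 1 each. BWA and SAMtools 1.3.1 with mm9 are named in the submitters' processing notes without their role; how reads were counted, how bins were called and against which threshold or input is not given in the sources used here. What the authors deposited is other than a level, namely the start and end of each 5 kb bin called differential. Read depth is unknown.

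The reference was NCBIM37 with GENCODE M1. Bin numbers of 8527 of 8527 ES and 8920 of 8920 MEF bins on chromosomes 1 to 19 equalled its grid, so the builds match. Positions are 1-based. Windows, CpG density (10 groups over 511186 bins with at least 50% sequence) and 32-base words recurring in the genome (1 in 64 sampled) were computed with Python 3.11.15, numpy 2.4.6, pandas 2.3.3, numba 0.67.0 and scipy 1.17.1. Numbers given by CpG density sum the genome-wide listed share of each bin's group. Exon numbers follow the transcript with the longest coding sequence. Printed stretches avoid exons outside coding sequence. Window counting was tested on simulated data for 200 genes, all 200 with the same bins as a base-by-base count.

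Members and lists were chosen with earlier results of these data known. Every member is named; partner genes are named from 2 listed bins in a cell type, or from 1 where a list has none with 2. No significance test was made. Partner symbols were matched by name or RefSeq synonym (GRCm38.p6), and 1 was not matched. One further partner gene is not reported here.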

Additional observations from a re-analysis of the deposited data

How the results depend on the processing

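The 8 other settings applied to the counts of members, the rates per Mb and the shared bins changed the window, the gene model, the overlap rule, the bins left out or joining within 10 kb. For the rates alone, the leading member was also left out and the CpG standard applied. Of 144 values, 141 stayed within 1.5 times (counts) or within the interval of the reported value (rates), intervals that are wide for the small groups. Of the other 3, the MEF rate of Celsr genes became 0 without the member with the most bins (Celsr1). Shared bins fell from 2 to 1 when bins meeting another gene or its upstream were left out, since chr10:59855001-59860000 meets the upstream of Gm17455, and to 1 when bins were joined, since both form 1 stretch. Under the CpG standard the Celsr ES rate fell from 19.9 to 5.98 per Mb, inside its wide interval. The type I ES rate fell from 4.79 to 2.46, also inside its interval. The atypical, Fat and Dachsous and type II ES rates became 3.47, 3.17 and 2.29, so type I no longer stood above atypical and Fat genes. Joining bins cannot change the number of members with a bin, so those values were no test of it. By bin midpoint, ES exon bins became 1, ES intron bins 23, ES upstream bins 2 and MEF exon bins 0. Counts at partner genes stayed within 1.5 times with the gene body alone. No paired analysis was possible because each group has 1 library and no value per library was used. The unknown depth and the missing direction limit every count: an unlisted bin may be unaltered or too shallow to call.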
